A study of Mus musculus with 6 samples.

Results

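The let-7 family of microRNAs was examined in mouse liver tumours and the liver next to them. Members were chosen by name, with no filter on a measured value, although earlier results of these data were known. They were every row of the deposited table for let-7a, b, c, d, e, f, g, i and miR-98, on either arm of the hairpin. The prefix mmu- of the mouse names, as in mmu-let-7a, is left out in what follows. This gave 16 of 695 rows, 9 of the main (guide) arm and 7 of the star (passenger) arm, marked with an asterisk as in the table. The tumour group held 3 liver tumours and the adjacent group 3 pieces of normal-looking liver beside them. All tissue came from C57BL/6J mice aged 6 months that had received 3E10 AAV-Rian-CMV particles, an adeno-associated virus vector for gene targeting at the non-coding RNA gene Rian, on the day after birth. The adjacent liver had therefore received the vector as well, and uninjected liver was not analysed here. Tumours and pieces are numbered 1293, 1309 and 1316 by their titles, and the third tumour carries 1306 in its source label. Whether the 3 tumours grew in different mice is not labelled. If some shared a mouse, the p-values leave out part of the variation between mice.

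let-7 was first known as a timer of development in the worm Caenorhabditis elegans. In mammals its mature forms are scarce in embryonic cells and plentiful in differentiated tissue, where the LIN28 proteins no longer block processing of the precursors. The guide arms share a seed, the stretch near the 5′ end that pairs with messenger RNAs, and are known to repress growth genes such as those of the Ras family, Myc and Hmga2. Lowered let-7 is commonly described in human liver cancer. The passenger arm of a hairpin is usually degraded after the guide has been loaded into Argonaute.

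All 16 rows were matched by name to mature sequences of RefSeq (GRCm38.p6). The 9 main arms are shown because they differ so little that a probe for one may also bind another, and how far this happens was not tested. Sequences run 5′ to 3′, with the seed, bases 2 to 8, in capitals.

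mmu-let-7a: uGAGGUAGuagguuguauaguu

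mmu-let-7b: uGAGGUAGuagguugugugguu

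mmu-let-7c: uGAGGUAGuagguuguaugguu

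mmu-let-7d: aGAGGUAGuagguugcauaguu

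mmu-let-7e: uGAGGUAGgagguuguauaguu

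mmu-let-7f: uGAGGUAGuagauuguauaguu

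mmu-let-7g: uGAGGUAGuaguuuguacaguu

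mmu-let-7i: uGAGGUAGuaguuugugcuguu

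mmu-miR-98: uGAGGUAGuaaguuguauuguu

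All 9 carry the seed GAGGUAG and are 22 bases long. Counted from 1 at the 5′ end, with let-7a's base first, let-7c differs from let-7a by A19G, let-7e by U9G and let-7f by G12A. The largest distance from let-7a is that of let-7i, with G12U, A17G, U18C and A19U. Across the 36 pairs of main arms, 4 pairs differ at 1 base and the most distant pair, let-7d and let-7i, at 6.

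The 7 star arms are shown for their seeds, which are not shared across the family.

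mmu-let-7a-1*: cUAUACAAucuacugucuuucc

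mmu-let-7b*: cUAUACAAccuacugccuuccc

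mmu-let-7f-1*: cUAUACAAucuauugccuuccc

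mmu-let-7c-1*: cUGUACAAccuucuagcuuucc

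mmu-let-7d*: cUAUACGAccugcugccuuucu

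mmu-let-7g*: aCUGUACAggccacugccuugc

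mmu-let-7i*: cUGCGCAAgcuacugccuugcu

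The star arms of let-7a-1, let-7b and let-7f-1 share the seed UAUACAA, and the other 4 each have one of their own. The sequence of let-7a-1* is also that of the star arm of the let-7c-2 hairpin, so this row reads both.

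The RefSeq table (GRCm38.p6) holds 12 hairpins of the family on 7 chromosomes. let-7a-1, let-7f-1 and let-7d lie together on the minus strand at chr13:48536012-48538272. let-7a-2 lies at chr9:41536716-41536811 within the span of the non-coding gene Mir100hg, which also spans miR-100 and miR-125b-1, and let-7g at chr9:106178840-106178927 within that of Wdr82. let-7c-2 and let-7b lie at chr15:85706603-85707403 within the span of the non-coding gene Lncppara. let-7c-1, at chr16:77599657-77599750, follows miR-99a, while let-7e, at chr17:17830352-17830444, precedes miR-125a and both lie within the span of Spaca6. let-7f-2 and miR-98 lie at chrX:151912346-151913321 within the span of Huwe1, and let-7i at chr10:122985640-122985724 with no annotated gene spanning it. The table gives spans of genes and not exons. Mature let-7a, let-7c and let-7f each arise from more than 1 of these hairpins, so their values cannot be assigned to a locus.

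Values are the authors' log2 values from 1-colour arrays, normalized with RMA, and a difference of 1 is a doubling. Array medians lay between 6.39 and 6.44 and array maxima between 14.42 and 14.82, so values near 6 may be background. miR-122, which defines hepatocytes, had 14.82, 14.82 and 14.42 in tumours 1293, 1309 and 1316, against 14.82, 14.75 and 14.82 in the adjacent pieces in the same order. Its lowest and highest values are also those of the array maxima, so a difference in it may not show at the top of the scale. Tumour 1293 stood apart from the other arrays. It lay above all 5 of them for 218 microRNAs (31.4% of those tested) and below all 5 for 298 (42.9%), and limma's array weights gave it 0.0715, against 1.08 to 2.13 for the others. Differences and gaps that rest on it are therefore given with and without it, while counts of separated rows and correlations are given with it only. For a single value, the smallest two-sided p of an exact permutation of 3 against 3 arrays is 0.10. Limma takes the same variance for both groups, while the median SD was 0.14 among tumours and 0.05 among adjacent pieces. With a tumour left out, limma's SEs and p-values draw on fewer tumours than adjacent pieces. They then say little about the spread among tumours, and how much each group adds to them differs from row to row.

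The main arms were compared first, tumour against adjacent liver. All 9 had a lower mean in tumours, with differences between -0.79 for let-7e and -0.08 for let-7i and a median of -0.37 on the log2 scale, against -0.03 over all 695 microRNAs. None of the 16 members passed an adjusted p of 0.05 in limma, where 2.88% of all microRNAs did. At an unadjusted p below 0.05, 7 members were lower (let-7a, b, c, e, f, g and let-7f-1*) and 0 higher, where limma gave 14.1% lower and 5.9% higher over all microRNAs. These 7 belong to the 174 microRNAs brightest in adjacent liver, of which 51.7% were lower at that threshold. The 174 were picked by their mean in adjacent liver alone. Rows bright only in tumours, such as miR-154* (mean 10.97 in tumours, 6.45 in adjacent liver), are left out. Shares and medians of the 174 therefore lean towards lower values in tumours wherever they are given, and by how much was not tested. For 8 of the 9 main arms all 3 tumours lay below all 3 adjacent pieces, let-7i being the exception. Such a separation was found for 22.9% of all microRNAs, but for 65.5% of the 174 brightest, to which all 9 main arms belong. These 174 had a median difference of -0.31, and of -0.21 without tumour 1293, against -0.37 and -0.32 for the main arms.

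let-7a, the founding sequence of the family, had 10.92, 11.03 and 10.61 in tumours 1293, 1309 and 1316, against 11.28, 11.20 and 11.29 in the adjacent pieces. The groups did not overlap, and tumour 1309 was nearest to the adjacent liver. The difference was -0.40 ± 0.12 (SE; limma adjusted p = 0.13), or 1.32-fold lower in tumours.

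let-7c had 9.87, 10.33 and 9.81 in the tumours, against 10.59, 10.49 and 10.61 in the adjacent pieces. Tumours 1293 and 1316 were both well below, and tumour 1309 was only slightly below. The difference was -0.57 ± 0.14 (SE; limma adjusted p = 0.11), the lowest adjusted p of the 16 members.

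let-7e had the largest difference of the main arms. Its values were 6.88, 7.78 and 7.64 in the tumours, against 8.17, 8.13 and 8.36 in the adjacent pieces. Tumour 1293 was the lowest array by far, while the other tumours still lay below every adjacent piece. Limma put the difference at -0.79 ± 0.24 (SE; adjusted p = 0.14), or 1.73-fold lower, and at -0.51 ± 0.08 (adjusted p = 0.0097) with tumour 1293 left out.

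miR-98, which carries the let-7 seed under another name, had 6.52, 7.40 and 7.42 in the tumours, against 7.57, 7.54 and 7.51 in the adjacent pieces. The groups did not overlap, but most of the gap was that of tumour 1293. Its difference of -0.42 ± 0.25 (SE; limma adjusted p = 0.44) became -0.13 when that tumour was left out. let-7i had 8.75, 8.97 and 8.94 in the tumours, against 9.01, 8.97 and 8.94 in the adjacent pieces. Its groups overlapped, and only tumour 1293 lay below the adjacent liver. The difference was -0.08 ± 0.08 (SE), and -0.01 without tumour 1293.

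The other 4 main arms, let-7b, d, f and g, had tumour means of 9.57 to 10.67 and adjacent means of 9.85 to 11.03. Their differences lay between -0.28 for let-7d and -0.37 for let-7f (limma adjusted p from 0.13 to 0.29), and their 3 tumours were below all adjacent pieces throughout. For let-7d the difference was -0.15 without tumour 1293. SDs among tumours were 0.20 to 0.24 for these 4, against 0.02 to 0.03 among adjacent pieces.

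**Figure D1:**
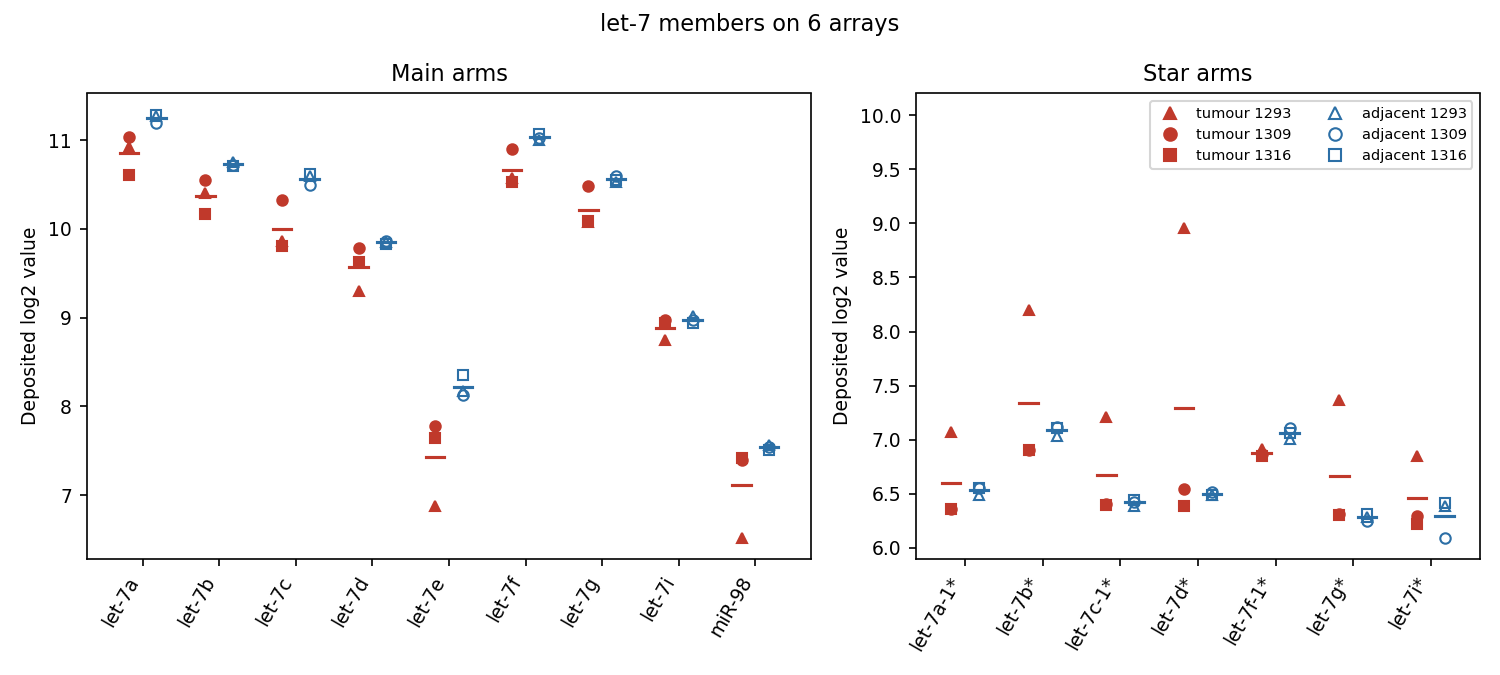
Deposited log2 values (vertical axes) of the 9 main arms (left) and 7 star arms (right) on each array, tumours filled and adjacent liver open, with the symbol giving the number of the pair and bars the group means. Tumours lie below adjacent liver for 8 main arms, while tumour 1293 is the highest array for 6 star arms.

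The size of the difference changed from pair to pair. The median over the 9 main arms was -0.46 in pair 1293, -0.14 in pair 1309 and -0.54 in pair 1316, and 8 main arms were lower in all 3 pairs. Over the 174 brightest microRNAs these medians were -0.54, -0.18 and -0.25. let-7a, b, c and f had their lowest value in tumour 1316, and let-7d, e, g, i and miR-98 in tumour 1293, although for let-7g these tumours had nearly the same value, 10.08 and 10.09 in tumours 1293 and 1316. Pearson correlations among main arms over the 6 arrays ran from 0.35, for let-7a and let-7i, to 0.99, for let-7c and let-7f. These values share arrays and their normalization and describe these arrays only.

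Whether a paralog changed unlike the others was tested by its value minus the mean of the other 8 main arms on each array. let-7e lay further down in tumours, by -0.43, and let-7c by -0.19, while let-7i lay further up, by 0.36, and let-7d by 0.14. In these 4 the groups did not overlap, which gave the smallest exact two-sided permutation p that the design allows, 0.10 (0.23 adjusted over the 9 paralogs). Without tumour 1293 the values were -0.24 for let-7e, -0.22 for let-7c, 0.32 for let-7i and 0.17 for let-7d. The other 5 paralogs lay between -0.03 and 0.06, with exact permutation p-values of 0.40 to 1, and without tumour 1293 let-7a moved to -0.15 and miR-98 to 0.19.

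Quantile normalization of the deposited values made the differences of 6 main arms smaller. They were -0.20 for let-7a, -0.11 for let-7b, -0.36 for let-7c, -0.10 for let-7d, -0.27 for let-7f and -0.06 for let-7g, and the median of the 9 was -0.20. The differences of let-7e, let-7i and miR-98 became slightly larger, at -0.83, -0.11 and -0.47, against -0.79, -0.08 and -0.42 before. Set against the other 8 main arms, let-7c was then at -0.09 (exact permutation p = 0.60), let-7i at 0.19 and let-7e at -0.62. let-7b and let-7g, at 0.19 and 0.25, then also reached the smallest exact permutation p of 0.10.

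The second comparison concerned the star arms, where 6 of 7 had a higher mean in tumours and 1 of 7, let-7f-1*, a lower one. The median difference was 0.25, but it was 0.82 in pair 1293, -0.02 in pair 1309 and -0.19 in pair 1316. None of the 7 was called, and none had all tumours above all adjacent pieces, where 8.63% of all microRNAs did. Without tumour 1293 the median was -0.04.

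let-7d* had 8.95, 6.55 and 6.38 in tumours 1293, 1309 and 1316, against 6.49, 6.52 and 6.49 in the adjacent pieces. Only tumour 1293 was high, and the other tumours lay at the level of adjacent liver, near the lower end of the scale. Its difference of 0.80 ± 0.68 (SE; limma adjusted p = 0.59) became -0.03 when that tumour was left out.

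let-7b* had 8.20, 6.90 and 6.90 in the tumours, against 7.04, 7.12 and 7.11 in the adjacent pieces. Tumour 1293 was above, and the other tumours below, every adjacent piece. Limma put the difference at 0.25 ± 0.36 (SE; adjusted p = 0.74) with all arrays and at -0.19 (adjusted p = 0.037) with tumour 1293 left out.

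let-7a-1* showed the same order at a lower level, with 7.07, 6.36 and 6.36 in the tumours, against 6.49, 6.56 and 6.55 in the adjacent pieces. Its difference of 0.06 ± 0.20 (SE; limma adjusted p = 0.88) became -0.17 (adjusted p = 0.040) without tumour 1293. let-7g* and let-7c-1* were high in tumour 1293, at 7.37 and 7.21, and between 6.30 and 6.41 in the other tumours, against 6.25 to 6.44 in the adjacent pieces. Their differences of 0.38 and 0.25 became 0.03 and -0.02 without tumour 1293. let-7i* had 6.85, 6.30 and 6.22 in the tumours, against 6.39, 6.09 and 6.42 in the adjacent pieces. Its difference of 0.16 became -0.04 without tumour 1293.

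let-7f-1* was the star arm that did not follow this pattern. It had 6.91, 6.87 and 6.85 in the tumours, against 7.01, 7.11 and 7.06 in the adjacent pieces. The groups did not overlap and all 3 tumours were close to each other. Limma gave -0.18 ± 0.05 (SE; adjusted p = 0.13) with all arrays and -0.20 (adjusted p = 0.033) with tumour 1293 left out. Its sequence shares the seed of let-7a-1* and let-7b*, both of which were high in tumour 1293. It holds 9 G or C bases of 22, against 8 in let-7a-1*, 10 in let-7c-1*, 11 in let-7b* and let-7d*, and 13 in let-7g* and let-7i*.

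Tumour 1293 lay above all 5 other arrays for 6 of the 7 star arms, by 0.44 for let-7i* to 2.41 for let-7d*, and for 0 of the 9 main arms. Among all 118 rows of the table named with an asterisk it lay above the other arrays for 52 (44.1%), with a median deviation from their mean of 0.07, against 0.80 for the let-7 star arms. It lay below all others for 5 of the 9 main arms, and for 70.7% of the 174 microRNAs brightest in adjacent liver. These are values of 1 array and have no replicate, and the part of array quality in them was not tested.

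**Figure D2:**
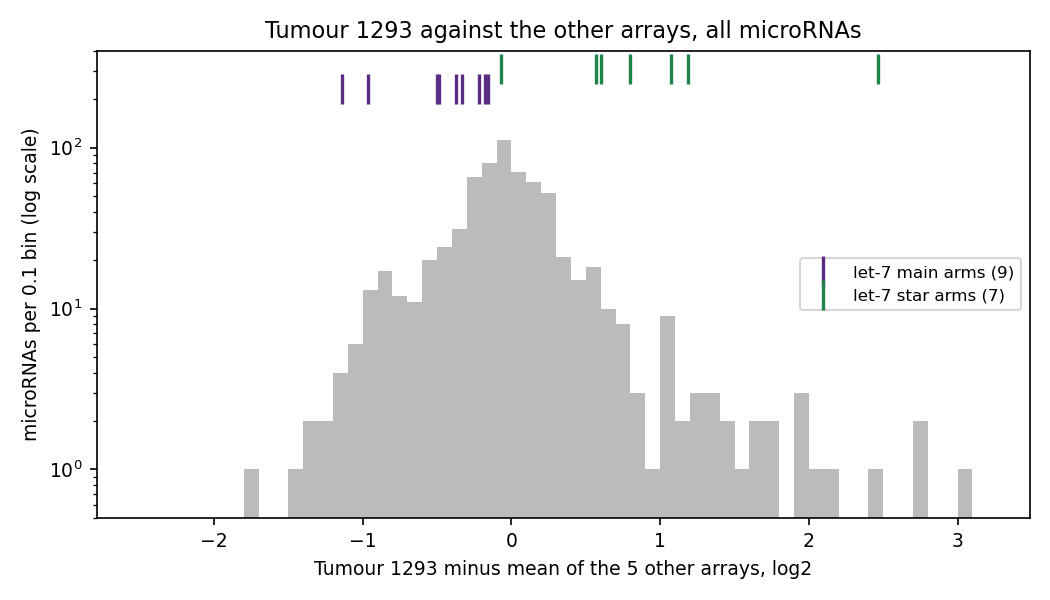
Histogram of all 695 microRNAs by their value in tumour 1293 minus the mean of the 5 other arrays (horizontal axis, log2; vertical axis, number per bin on a log scale), with ticks for the let-7 members. The main arms lie between -1.14 and -0.16 and the star arms between -0.07 and 2.47.

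**Figure D3:**
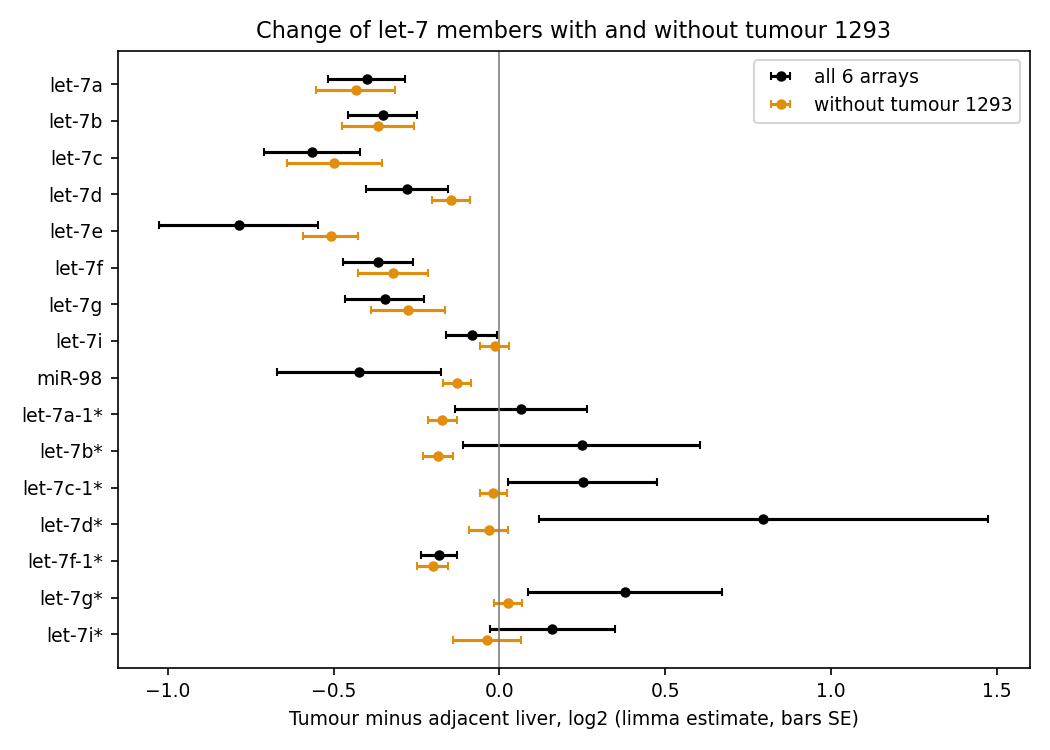
Limma estimates of tumour minus adjacent liver (horizontal axis, log2, bars SE) for each member, over all 6 arrays and without tumour 1293. Main arms stay below or near 0 in both, while 5 of the 6 star arms with a positive estimate have a negative one without that tumour.

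The third comparison set each star arm against the main arm of its name, as the main value minus the star value on each array. In 3 of the 7 gaps, those of let-7a, let-7c and let-7f, the main arm comes from several hairpins, so the gap is not that of 1 hairpin. Only the change of this gap between tissues was read, since levels of different probes are not comparable. The mean gap was narrower in tumours for all 7, with a median change of -0.60 on the log2 scale. Outside tumour 1293, 5 of the 7 star arms (all but let-7b* and let-7f-1*) lay between 6.09 and 6.56, near the array medians. Whether they were above background there was not tested, and a gap with them may be little more than the value of the main arm. These 5 gaps are therefore given as values without a test. For let-7d and let-7d* it was 0.35, 3.24 and 3.24 in tumours 1293, 1309 and 1316, against 3.37, 3.34 and 3.34 in the adjacent pieces. Tumour 1293 stood far from the other arrays, and tumours 1309 and 1316 differed from their own adjacent pieces by -0.11 and -0.10. The change was -1.07, and -0.11 without tumour 1293.

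For let-7c and let-7c-1* the gap was 2.66, 3.92 and 3.41 in the tumours, against 4.20, 4.07 and 4.17 in the adjacent pieces. All 3 tumours lay below the adjacent pieces, and tumour 1316 was well below them too. The change was -0.82, and -0.48 without tumour 1293, against -0.50 for let-7c itself in the same arrays. For let-7g and let-7g* it was -0.73, also without overlap, and -0.30 without tumour 1293, against -0.28 for let-7g itself.

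In the other 4, the groups overlapped. The change was -0.60 for let-7b and let-7b* (exact two-sided permutation p = 0.30, adjusted over the 7 gaps 0.42) and -0.18 for let-7f and let-7f-1* (exact permutation p = 0.40, adjusted 0.47), and -0.18 and -0.12 without tumour 1293. For let-7a and let-7a-1* it was -0.46, and for let-7i and let-7i* -0.24, with -0.26 and 0.02 without tumour 1293. The median change over the 7 gaps was -0.18 without tumour 1293, and -0.37 after quantile normalization. It was -0.91 without tumour 1309. After quantile normalization the groups overlapped for let-7d, at -0.93, and for let-7g, at -0.45, while let-7c was at -0.62 without overlap.

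**Figure D4:**
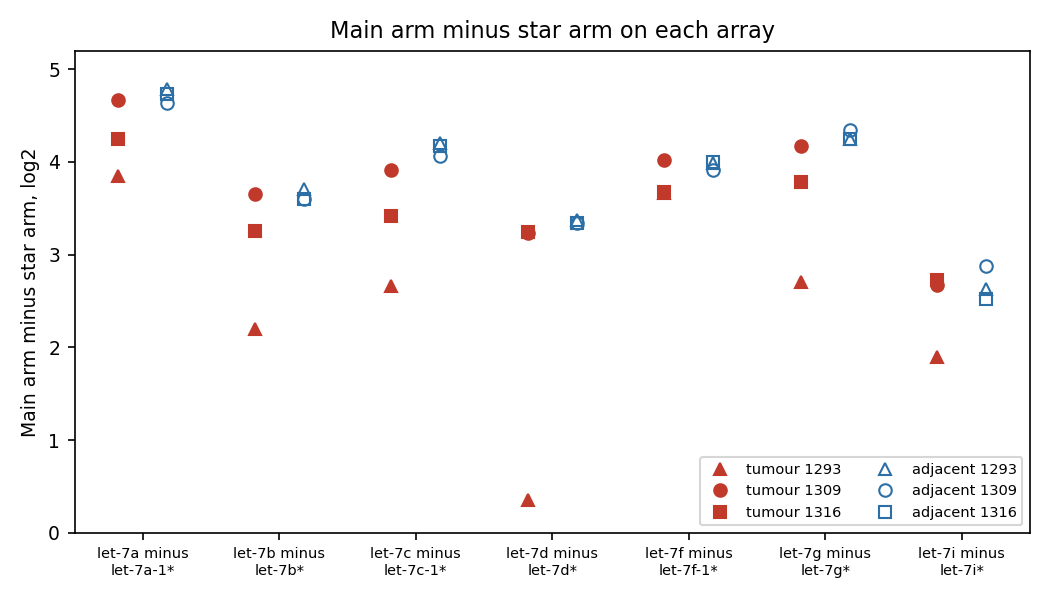
Main arm minus star arm value (vertical axis, log2) for 7 star arms on each array, tumours filled and adjacent liver open, with the symbol giving the number of the pair. Tumour 1293 has the smallest gap of all arrays in each of the 7, with 0.35 for let-7d.

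Which members limma called depended on the arrays used, and so did the share called of all microRNAs. Without tumour 1293, 4 of the 16 members were called lower (let-7e, let-7a-1*, let-7b* and let-7f-1*), where 19.6% of all microRNAs were called in either direction. Of the 174 microRNAs brightest in adjacent liver, 90 were called in either direction in that fit, against 1 of the 9 main arms. let-7a, b, c, f and miR-98 were just past the threshold there, with limma adjusted p from 0.052 to 0.089. let-7d, g and i had 0.15 to 0.89. Without the whole pair 1293 no member was called (lowest adjusted p = 0.051), against 8.06% of all. Without tumour 1309, 3 were called lower (let-7c, let-7f and let-7g), against 8.35% of all. Without pair 1309 let-7c alone was called (adjusted p = 0.046), against 2.01% of all. With array weights, 6 were called lower (let-7a, b, c, e, f and let-7f-1*), where 19.9% of all microRNAs were called. No member was called higher in any of the 16 alternatives, and the replicate block of pair numbers left none called (lowest adjusted p = 0.18).

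Some let-7 hairpins lie beside those of miR-99, miR-100 and miR-125, microRNAs with other seeds that are thought to be made from the same primary transcripts. The table held 9 rows of these partners, and limma called 0 of them, against 2.88% of all microRNAs. At an unadjusted p below 0.05 in limma, 3 were lower and 0 higher, against 14.1% and 5.9% of all. miR-99a, which lies beside let-7c-1, had 7.08, 7.83 and 7.04 in tumours 1293, 1309 and 1316, against 8.37, 8.33 and 8.27 in the adjacent pieces. All tumours were lower, and tumour 1309 was the nearest to adjacent liver, as it was for let-7c. The difference was -1.005 ± 0.21 (SE; limma adjusted p = 0.089), or 2.01-fold lower, against -0.57 for let-7c.

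miR-125b-5p had a difference of -0.80 (adjusted p = 0.093) and miR-100, the partner of let-7a-2, one of -0.43 (adjusted p = 0.093), and both separated the groups. All tumours lay below all adjacent pieces for 4 of the 9 partners, against 22.9% of all microRNAs. Both partners of let-7e had smaller estimates than it, and this difference between rows was not tested. miR-99b was at -0.10 and miR-125a-5p at -0.08, against -0.79 for let-7e. miR-125a-5p had its highest value of the 6 arrays in tumour 1293, at 7.85, against 7.51 in the adjacent piece. let-7e had its lowest value there, at 6.88, against 8.17 in the adjacent piece. Without tumour 1293, limma called 4 of the 9 partners lower, where it called 19.6% of all microRNAs. They were miR-125a-5p at -0.29 (adjusted p = 0.0095), miR-100 at -0.46, miR-125b-5p at -0.77 and miR-99a at -0.89. None of the 4 was called without the whole pair 1293 (adjusted p from 0.051 to 0.13). Limma called miR-99a, miR-125b-5p and miR-100 lower without tumour 1309, against 8.35% of all microRNAs, and miR-99a alone without pair 1309, against 2.01%. With array weights all 4 were called lower, against 19.9% of all. miR-99b, which is not among the 4, was at -0.05 (limma adjusted p = 0.58) without tumour 1293.

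The microRNAs whose values over the 6 arrays were most like the mean of the 9 main arms were miR-365, miR-26a, miR-107, miR-203 and miR-194, with Pearson correlations of 0.992 to 0.997. They were 0.63 to 1.14 lower in tumours on the log2 scale, against 0.40 for the main-arm mean. The least alike were miR-193b, miR-433, miR-329, miR-337-3p and miR-369-5p (-0.99 to -0.96), of which all but miR-193b come from the Dlk1-Dio3 region that holds Rian. With 3 arrays in each group these correlations mostly restate the difference between tissues and the order of the tumours, and they are given as a description.

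Of 18 markers of liver cell types, 15 had a lower and 3 a higher mean in tumours (miR-145, miR-150 and miR-155), where 59.6% of all microRNAs and 90.8% of the 174 brightest had a lower mean. miR-145 and miR-150 were high in tumour 1293 only, at 6.63 and 7.02. In tumours 1309 and 1316, miR-145 had 6.26 and 6.17, against 6.27 to 6.30 in adjacent liver. miR-150 had 6.36 and 6.49 there, against 6.31 to 6.57. The difference of miR-155 was 0.0015, and tumour 1293 was its lowest array, at 6.21. None of the 18 was called by limma. The 3 hepatocyte microRNAs (miR-122, at the top of the scale, miR-192 and miR-194) averaged 11.51 to 11.97 in tumours, against 12.14 to 12.15 in adjacent liver. In mean, 3 of 3 were lower. The 5 stromal markers averaged 6.63 to 6.89, against 7.14 to 7.23 (4 of 5 lower), and the 6 leukocyte markers 6.79 to 7.29, against 7.22 to 7.41 (4 of 6 lower). The 2 endothelial markers averaged 8.28 to 8.64, against 8.67 to 8.73, and the 2 erythroid ones 7.75 to 8.47, against 8.14 to 8.80 (all lower in mean). Without tumour 1293 the differences of these list means were -0.41 for hepatocyte, -0.35 for stromal, -0.09 for leukocyte, -0.17 for endothelial and -0.12 for erythroid markers, against -0.44, -0.42, -0.24, -0.25 and -0.31 with all arrays. In such bulk tissue, fewer cells of a type and less RNA per cell cannot be told apart, and the part of these markers in the let-7 differences was not tested.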

How the data were processed

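Small RNA was profiled on 1-colour Agilent microRNA arrays after labelling of total RNA with cyanine 3-pCp, per the labels' protocols. The deposited log2 values, 1 per mature microRNA, were made by the authors with RMA, a method that corrects background, quantile-normalizes the arrays and summarises probes. RMA and limma are named, with no version, in the submitters' processing notes. The log base is not stated and was taken as 2 from the range of values. Neither scanner files nor detection calls were used here. The number of arrays limits the precision.

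All 695 microRNAs were tested with limma 3.58.1 (R 4.3.3; lmFit, eBayes) on these values, tumour against adjacent, two-sided, with Benjamini-Hochberg adjustment over all rows and a threshold of 0.05. No row was filtered out, and all 16 members were tested. Arm gaps and paralogs were compared by exact permutation over arrays. The fitting code was run on simulated arrays with known changes, the same spread in both groups and no outlying array. How the fits behave with the unequal spreads of these data was not tested. Alternatives were a replicate block, other scalings, leaving out dim microRNAs, robust eBayes with an intensity trend, array weights, and leaving out each array or pair. The block was not in the main fit, since no label states a paired model. Source labels place each adjacent piece beside the tumour of its number, but the third tumour's own source label carries another number, and none says that a number is a mouse. The correlation of deviations from group means was -0.05 in pair 1293, 0.07 in pair 1309 and -0.003 in pair 1316. Named beside the members are all rows of miR-99, miR-100 and miR-125, the 5 microRNAs most and least like the main-arm mean, and cell type markers. Members, lists and tests were chosen with earlier results of these data known. Python 3.11.15 with matplotlib 3.10.9 drew the figures.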

Additional observations from a re-analysis of the deposited data

How the results depend on the processing

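The count of called members, 0 with all arrays, was 6 with array weights, and ranged from 0 to 4 when an array or a pair was left out. It stayed at 0 with the replicate block, the other scalings, the filter on dim microRNAs and the intensity trend, and the block changed no call of a member. Directions changed for members whose estimate rests on tumour 1293. With array weights, let-7a-1* was at -0.15, let-7b* at -0.15 and let-7i* at -0.025. Leaving out arrays or pairs gave let-7a-1* values of -0.19 to 0.19, let-7b* -0.21 to 0.48, let-7c-1* -0.033 to 0.40, let-7d* -0.039 to 1.25, let-7i* -0.038 to 0.34 and let-7i -0.13 to 0.0063. The gap of let-7i ranged from -0.47 to 0.024, and with pairs left out the paralog values ranged from -0.14 to 0.13 for let-7a, -0.067 to 0.14 for let-7b, -0.044 to 0.11 for let-7f and -0.24 to 0.21 for miR-98. The median of the main arms stayed between -0.48 and -0.20 over the 16 alternatives, and that of the star arms lay between -0.039 and 0.40. No test for an outlying array within a group was run, since each group held 3 arrays, and the values that set tumour 1293 apart are given with the results. For rows near 6 the signal over background, which limits what can be seen, was not analysed here.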
